A study of Mus musculus with 6 samples.

Results

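The genes examined were 9 genes of the amyloid and tau pathways, App, Mapt, Psen2, Bace1, Adam10, Clu, Bin1, Sorl1 and Ide. They were taken by symbol, each matched to 1 Ensembl identifier, from the 21006 genes with a level in the samples, all prefrontal cortex of male mice. The group PND had 3 wild type C57BL/6 mice given isoflurane anesthesia and an exploratory laparotomy (opening and inspection of the abdomen), a model of postoperative neurocognitive disorder. The CON group had 3 wild type C57BL/6 mice with neither anesthesia nor operation. The age label of all 6 samples was 18 months, while their titles hold 17M, which the labels do not explain. In the study both groups went through fear conditioning and the Barnes maze, which ran over several days after the operation. All brains were taken under deep isoflurane soon after the last maze test, so days and not hours after the operation. The operated mice also had lidocaine cream and povidone iodine put on the incision. Anesthesia and operation came together in the PND group, so they cannot be told apart. Levels are FPKM, the number of sequenced fragments of a gene scaled to its exon length and to the depth of the sample.

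APP is a membrane protein that is cut in steps. BACE1, the beta-secretase, makes the first cut on the way to amyloid-beta, the peptide that forms the plaques of Alzheimer's disease, and ADAM10, the main alpha-secretase of neurons, cuts inside the amyloid-beta stretch and so prevents its release. The gamma-secretase complex, whose catalytic subunit is a presenilin such as PSEN2, makes the final cut. IDE, the insulin-degrading enzyme, breaks amyloid-beta down, CLU (clusterin, also named apolipoprotein J) carries it outside cells, and SORL1 and BIN1 act in the sorting and recycling of membrane cargo. MAPT encodes tau, a protein that binds axonal microtubules and forms the tangles of Alzheimer's disease.

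The promoters of the 3 most abundant of these genes are shown, as the regulatory sequence beside the starts of App, Sorl1 and Adam10. Each is 300 bases from RefSeq on GRCm38.p6, 250 before and 50 after an annotated start, on the strand of the gene. Capitals mark GGGCGG or its complement (the GC box, which Sp1 can bind) and CACGTG (an E-box, read the same on both strands). App lies at chr16:85173658-85173957 on the minus strand, Sorl1 at chr9:42124248-42124547 on the minus strand and Adam10 at chr9:70678732-70679031 on the plus strand.
App: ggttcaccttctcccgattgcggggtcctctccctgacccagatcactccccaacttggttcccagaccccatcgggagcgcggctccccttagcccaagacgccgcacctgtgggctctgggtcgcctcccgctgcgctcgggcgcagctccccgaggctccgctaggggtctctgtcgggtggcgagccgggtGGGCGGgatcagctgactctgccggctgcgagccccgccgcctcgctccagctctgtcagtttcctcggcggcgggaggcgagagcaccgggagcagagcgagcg
Sorl1: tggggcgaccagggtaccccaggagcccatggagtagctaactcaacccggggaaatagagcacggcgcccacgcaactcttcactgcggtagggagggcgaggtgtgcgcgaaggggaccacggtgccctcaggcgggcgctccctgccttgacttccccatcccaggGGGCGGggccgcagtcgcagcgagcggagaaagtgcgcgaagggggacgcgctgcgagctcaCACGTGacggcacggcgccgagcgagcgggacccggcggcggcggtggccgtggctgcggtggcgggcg
Adam10: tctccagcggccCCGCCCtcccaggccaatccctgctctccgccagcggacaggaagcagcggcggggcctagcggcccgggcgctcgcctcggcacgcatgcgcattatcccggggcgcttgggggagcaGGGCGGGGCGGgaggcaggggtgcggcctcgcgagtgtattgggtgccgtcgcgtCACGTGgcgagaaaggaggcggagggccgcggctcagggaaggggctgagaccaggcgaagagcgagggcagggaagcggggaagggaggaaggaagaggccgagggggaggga

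All 3 windows were rich in G and C, with 71.0% in App, 72.3% in Sorl1 and 73.3% in Adam10, against a median of 52.7% over the 32851 mouse promoters of the same length. GGGCGG was found 1 time in App, 1 time in Sorl1 and 3 times in Adam10, where 2 of the matches share bases, and 35.7% of all promoters held it. CACGTG was found 1 time each in Sorl1 and Adam10 and in 7.2% of all promoters. The letters TATAAA, searched on both strands, were in none of these 3 windows and in 13.6% of all promoters. RefSeq gives a second start of Sorl1, whose window (chr9:42077164-42077463, minus strand) had 44.0% G and C, below that median, and 0 matches to these 3 motifs. The levels are per gene and do not tell the starts apart. Promoters of 5 of the 9 genes were in the table, and the matches describe the letters only.

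The labelled tissue was checked against marker genes. The summed level of 8 neuronal markers lay between 863 and 942 FPKM in PND and between 881 and 954 FPKM in CON, so the groups overlapped. The summed level of 6 striatal markers ranged from 134.9 to 174.1 FPKM in PND and from 88.6 to 226.7 FPKM in CON. The groups did not overlap in the sum of 5 endothelial markers, at 26.2 to 34.5 FPKM in PND and 22.9 to 25.7 FPKM in CON, or in that of 7 choroid plexus markers, at 2.97 to 3.63 FPKM in PND and 1.53 to 2.94 FPKM in CON. Taken singly, only 1 of the 5 endothelial markers had groups that did not overlap. The same held for 1 of the 4 choroid plexus markers that averaged 0.1 FPKM or more. Of all genes averaging that much, 7.66% had groups that did not overlap. Ttr, the defining choroid plexus gene, reached 0.207 FPKM at most and was listed at 0 in 3 of the 6 samples. Microglial markers summed to 43.9 to 50.1 FPKM in PND and 46.2 to 55.5 FPKM in CON, and hypothalamic and red blood cell markers to at most 2.76 FPKM in any sample. The part of these cells in the results was not tested. The files give no depth, but steps in the low values gave an estimate of 7179271 to 9387414 fragments per sample, which is approximate. At that estimate App rested on 30764 to 45404 fragments per sample and Psen2 on 27 to 41. In bulk tissue, fewer cells of a type and less RNA per cell cannot be told apart.

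To ask whether anesthesia and operation were followed by a change in the amyloid and tau genes, PND was compared with CON for each gene. All 9 genes were measured in every sample and passed the filter on low values, and in each of them the PND and CON samples overlapped. In limma, 0 of the 9 had an adjusted p below 0.05 (0.9999 for each), 0 had an unadjusted p below 0.05 and 0 passed the cut-off of the study (a fold change above 2 with an unadjusted p below 0.05). Over the 18185 genes tested these shares were 0.011%, 3.13% and 1.33%, and 7.66% had groups that did not overlap. The log2 fold changes, PND minus CON on log2(FPKM + 0.1), ran from -0.13 in Ide to 0.19 in Bace1, with a median of 0.11 against 0.012 over all genes tested. Of the 9 estimates, 6 were above 0 and 3 below, against 9529 above and 8656 below over all genes tested. All 9 lay within 0.5 of 0, as did 86.3% of all genes tested. Among genes averaging 1 FPKM or more, which include all of the 9 but Psen2, this share was 94.1%. The 95% intervals of all 9 genes lay within a 2-fold change in either direction, and those of 7 genes lay within 1.5-fold, the exceptions being Mapt and Bin1. Over all genes tested, the intervals of 11180 of 18185 lay within 2-fold and those of 5604 within 1.5-fold.

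**Figure D1:**
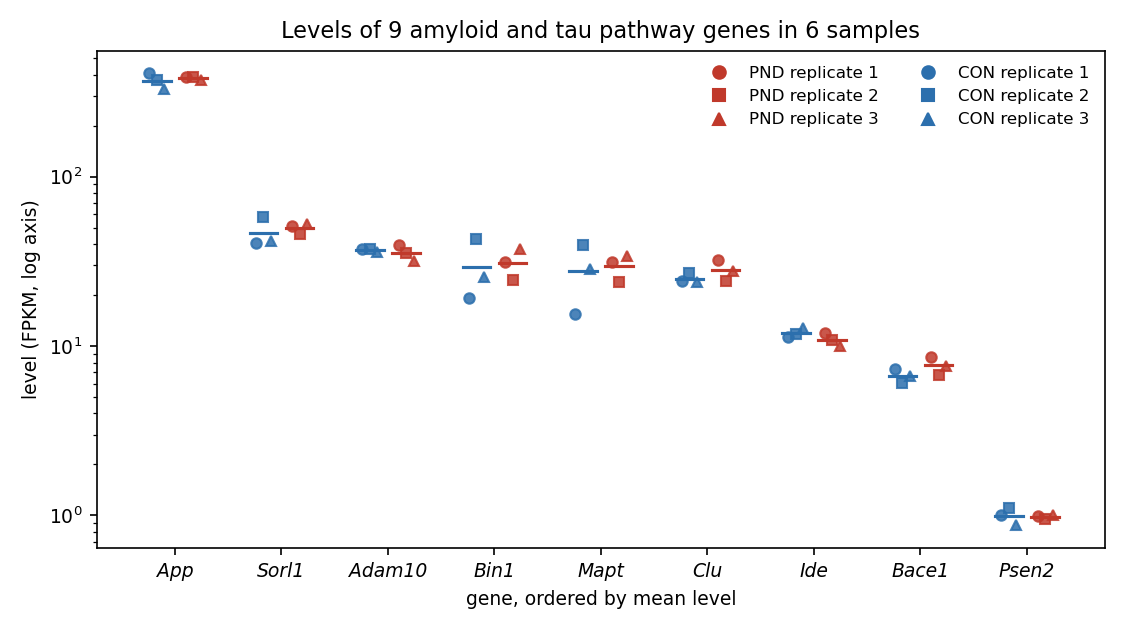
Level of each of the 9 genes in FPKM on a log axis, with 1 point per sample (red PND, blue CON, symbols for replicates 1 to 3) and a line at the mean of each group (n = 3). App stands highest at 330 to 408 FPKM and Psen2 lowest at 0.875 to 1.11 FPKM, and the points of the groups overlap in every gene.

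App (ENSMUSG00000022892), the source of the amyloid-beta peptide, lies on chromosome 16 from 84949685 to 85173766 on the minus strand. These and the following coordinates are those of GENCODE M21 on GRCm38. Its level was 388, 387 and 372 FPKM in PND replicates 1 to 3 and 408, 371 and 330 FPKM in CON replicates 1 to 3. The highest and the lowest sample were thus both CON samples, and the PND samples lay between them. The mean was 382 ± 8.87 FPKM for PND and 370 ± 39.0 FPKM for CON (SD, n = 3), a log2 fold change of 0.054 (standard error 0.11, limma unadjusted p = 0.626). The 95% interval ran from 0.873 to 1.24 times the CON level. Without CON replicate 3 the log2 fold change was -0.025. App ranked 28 of all genes by mean level, and it made up between 62.4% and 72.3% of the summed FPKM of the 9 genes.

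Of the secretases, Bace1 (ENSMUSG00000032086, chromosome 9, 45838580 to 45864399) had the smallest p of the 9 genes. Bace1 was at 8.64, 6.76 and 7.65 FPKM in PND and at 7.31, 6.09 and 6.68 FPKM in CON. The highest of these was PND replicate 1, while PND replicate 2 lay below CON replicate 1, so the groups overlapped. The means were 7.68 ± 0.944 and 6.70 ± 0.610 FPKM, a log2 fold change of 0.19 (standard error 0.15, limma unadjusted p = 0.232, adjusted p = 0.9999), with an interval from 0.899 to 1.45 times the CON level. Exons of Bace1 overlap Rnf214, Gm16536 and Gm49338 on the opposite strand, and the use of strand in counting is not given in the sources used here, so reads of these genes may not have been told apart. The same holds for App with Gm49227, Sorl1 with Gm16214 and Bin1 with A830052D11Rik.

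Adam10 (ENSMUSG00000054693, chromosome 9, 70678997 to 70780229), the alpha-secretase, had 39.5, 35.5 and 31.9 FPKM in PND and 37.3, 37.3 and 36.2 FPKM in CON. The CON samples were close together and lay inside the range of the PND samples. The log2 fold change was -0.056 (standard error 0.11, unadjusted p = 0.624), and it was 0.020 without PND replicate 3. Because APP is cut first by either enzyme, the levels were also set against each other within each sample. The Adam10 level was 4.57, 5.25 and 4.17 times that of Bace1 in PND and 5.10, 6.12 and 5.41 times in CON. The log2 ratio of Bace1 to Adam10 was -2.22 ± 0.17 in PND and -2.47 ± 0.13 in CON (SD, n = 3), a difference of 0.25. The ratios of the groups overlapped, as CON replicate 1 (-2.35) lay above PND replicate 2 (-2.39). The exact permutation test, two-sided, gave p = 0.2, and 0.1 is the smallest p that 3 against 3 samples allow.

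Psen2 (ENSMUSG00000010609, chromosome 1, 180227004 to 180263438), a catalytic subunit of gamma-secretase, was the least abundant of the 9 genes. It had 0.990, 0.952 and 1.01 FPKM in PND and 1.005, 1.11 and 0.875 FPKM in CON. As with App, the highest and lowest values were both from CON. The log2 fold change was -0.012 (standard error 0.23, unadjusted p = 0.957), with an interval from 0.688 to 1.43 times the CON level. The estimate turned to 0.0081 when PND replicate 2 was left out and to 0.061 when CON replicate 2 was. The coefficient of variation of Psen2 over the 6 samples was 7.71%, below the 15.6% to 19.2% that counting alone would give at the estimated number of fragments. The fragment estimate for Psen2 is therefore uncertain.

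Ide (ENSMUSG00000056999, chromosome 19, 37268743 to 37337852), the amyloid-beta degrading enzyme, had 11.9, 10.9 and 9.95 FPKM in PND and 11.3, 11.7 and 12.9 FPKM in CON. The lowest 2 samples were PND replicates 3 and 2, but PND replicate 1 lay above CON replicates 1 and 2. The means were 10.9 ± 0.999 and 11.9 ± 0.830 FPKM, a log2 fold change of -0.13 (standard error 0.12, unadjusted p = 0.332).

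Clu (ENSMUSG00000022037, chromosome 14, 65968483 to 65981547), the amyloid-beta carrier clusterin, had 32.1, 24.1 and 27.8 FPKM in PND and 24.1, 27.1 and 23.8 FPKM in CON. PND replicates 1 and 3 were the highest samples, and PND replicate 2 lay within the CON range. The means were 28.0 ± 3.98 and 25.0 ± 1.82 FPKM, a log2 fold change of 0.16 (standard error 0.13, unadjusted p = 0.275). Astrocytes are the main source of clusterin in cortex, and the choroid plexus expresses it as well. The summed level of 8 astrocyte markers was 334 to 453 FPKM in PND and 288 to 579 FPKM in CON, with 4 markers higher and 4 lower in PND. Of these, Slc1a2 alone was at 113 to 219 FPKM in PND and 68.5 to 368 FPKM in CON. The spread of the sum was thus largely that of Slc1a2. Gfap, the astrocyte filament protein, was higher in PND (log2 fold change 0.66, unadjusted p = 0.00294), and Aqp4, the astrocyte water channel, was lower (-0.36, unadjusted p = 0.0275), both with an adjusted p of 0.9999. The part of these cells in the level of Clu was not tested.

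Mapt (ENSMUSG00000018411, chromosome 11, 104231390 to 104332090), which encodes tau, had 31.4, 24.0 and 33.9 FPKM in PND and 15.4, 39.7 and 28.7 FPKM in CON. Its highest sample was CON replicate 2 and its lowest CON replicate 1, a range of 2.58-fold that was the widest among the 9 genes and lay within the control group. The means were 29.8 ± 5.15 and 27.9 ± 12.2 FPKM, a log2 fold change of 0.18 (standard error 0.33, unadjusted p = 0.596), with an interval from 0.667 to 1.93 times the CON level. Without CON replicate 1 the log2 fold change was -0.19 (unadjusted p = 0.368). The direction of the estimate for tau thus rested on 1 control sample.

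Bin1 (ENSMUSG00000024381, chromosome 18, 32377230 to 32435737), which bends membranes in endocytosis, varied in the same order. It had 31.2, 24.7 and 37.2 FPKM in PND and 19.3, 43.1 and 25.6 FPKM in CON, again with both extremes in CON replicates 1 and 2. The log2 fold change was 0.14 (standard error 0.29, unadjusted p = 0.645), and it was -0.12 without CON replicate 1. Bin1 is made by neurons and by oligodendrocytes. The 8 oligodendrocyte markers summed to 240 to 303 FPKM in PND and 274 to 299 FPKM in CON, and the log2 fold change was below 0 in 6 of the 8 (median -0.16). Over all genes tested it was below 0 in 8656 of 18185. An unadjusted p below 0.05 was found for 1 of the 8, Opalin (0.0291, adjusted p = 0.9999), whose groups overlapped, against 3.13% of all genes tested.

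Sorl1 (ENSMUSG00000049313, chromosome 9, 41964720 to 42124297), a sorting receptor that keeps APP away from the secretases, was the second most abundant of the 9 genes. It had 51.0, 45.9 and 52.4 FPKM in PND and 40.8, 57.5 and 41.6 FPKM in CON. All 3 PND samples lay above CON replicates 1 and 3 and below CON replicate 2. The means were 49.8 ± 3.43 and 46.6 ± 9.43 FPKM, a log2 fold change of 0.11 (standard error 0.15, unadjusted p = 0.492). Without CON replicate 2 it was 0.27 (unadjusted p = 0.0433, adjusted p = 0.831), the only case among all alternatives in which any of the 9 genes had an unadjusted p below 0.05. In that fit 5.28% of all genes tested had one. Without CON replicate 1 the log2 fold change of Sorl1 was 0.023, and without CON replicate 3 it was 0.036, so its size depended on which control sample was left out.

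**Figure D2:**
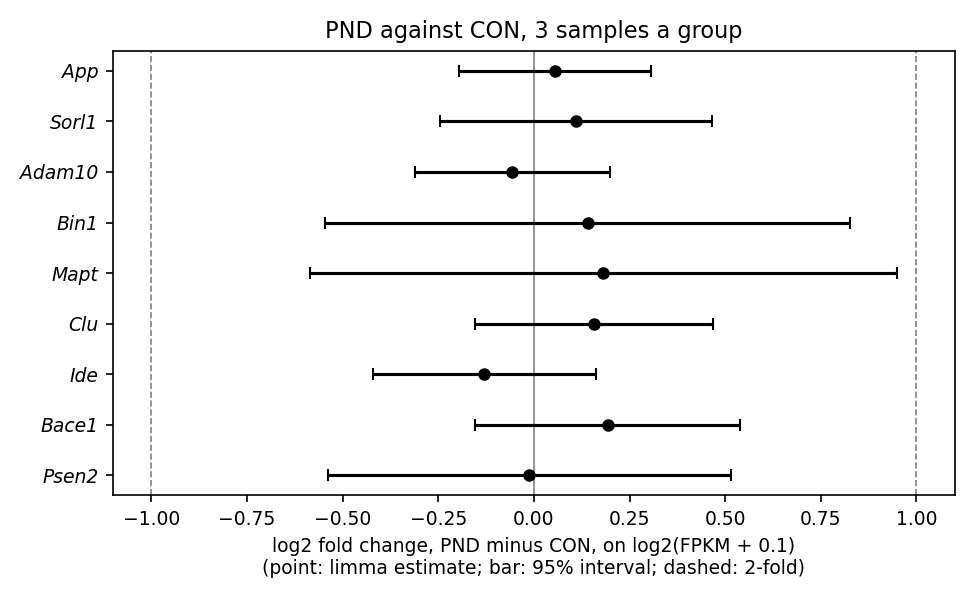
Log2 fold change of each of the 9 genes, PND minus CON on log2(FPKM + 0.1), with the limma estimate as a point and its 95% interval as a bar (3 samples a group). All intervals cross 0 and lie within the dashed lines at a 2-fold change, and those of Mapt (-0.58 to 0.95) and Bin1 (-0.55 to 0.83) are the widest.

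The order of the levels, which FPKM allow to be compared between genes per length, was App, Sorl1, Adam10, Bin1, Mapt, Clu, Ide, Bace1 and Psen2. App was 7.80 times as high as Sorl1 by the means, Sorl1 1.33 times Adam10, Clu 2.32 times Ide, Ide 1.59 times Bace1 and Bace1 7.27 times Psen2. In these 5 neighbouring pairs the sample ranges did not meet. Adam10, Bin1, Mapt and Clu followed each other with overlapping ranges, and the order of neighbours held in 4, 4 and 3 of the 6 samples respectively, so it was not resolved beyond the spread between samples.

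The spread between samples differed among the 9 genes. The pooled standard deviation within groups, on the log2 scale, was 0.52 for Mapt and 0.46 for Bin1, against 0.11 for App, Adam10 and Psen2, 0.12 for Ide, 0.15 for Bace1, 0.16 for Clu and 0.21 for Sorl1. For the 12387 genes averaging 1 FPKM or more, the median was 0.245. Mapt and Bin1 thus varied more than most genes, and App and Adam10 less.

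This spread was set against the GC content of the transcripts, since genes rich in G and C moved together between samples. Mapt (52.5% GC, the eighth decile of GC content) deviated from its own mean on the log2 scale by -0.84 in CON replicate 1, 0.52 in CON replicate 2 and 0.052 in CON replicate 3, and by 0.18, -0.20 and 0.29 in PND replicates 1 to 3. The median deviation of the genes in that decile was smaller, at -0.21, 0.20, -0.026, 0.081, -0.14 and 0.16 in the same samples. Bin1 (55.3% GC, the ninth decile) deviated by -0.59, 0.56, -0.19, 0.098, -0.24 and 0.35, against decile medians of -0.36, 0.32, -0.022, 0.086, -0.21 and 0.25. Both genes thus moved further than the median of their decile in CON replicates 1 and 2.

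Clu (55.6% GC), in the same decile as Bin1, had deviations of -0.13, 0.039, -0.15, 0.28, -0.13 and 0.077. These were smaller in size than those of Bin1 in 5 samples and larger in PND replicate 1. Psen2 (55.1% GC), also in that decile, had 0.023, 0.15, -0.16, 0.0040, -0.047 and 0.025. From the lowest to the highest sample, Clu covered 0.43 and Psen2 0.31 on the log2 scale, against 1.36 for Mapt and 1.15 for Bin1. The sign of the deviation was that of the decile median of the gene in 6 of 6 samples for Bin1, Clu and Sorl1, in 5 for App, Mapt and Psen2, in 4 for Bace1 and in 3 for Adam10 and Ide.

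**Figure D3:**
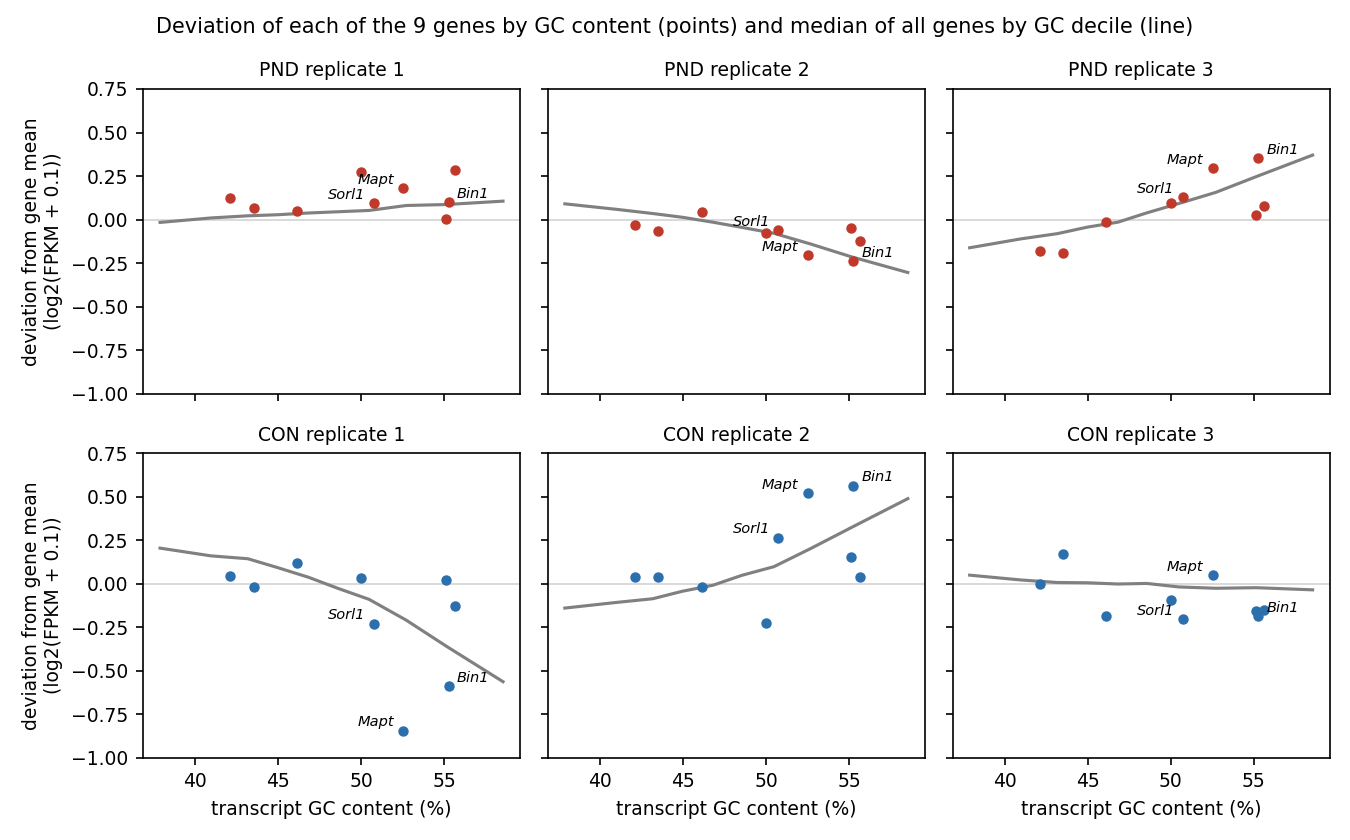
Deviation of each of the 9 genes (points) from its own mean over the 6 samples, on log2(FPKM + 0.1), against the GC content of its longest transcript in percent, with 1 panel per sample (red PND, blue CON). The grey line joins the medians of all genes with at least 1 FPKM by deciles of GC content, and Mapt and Bin1 lie beyond the line at -0.84 and -0.59 in CON replicate 1 and at 0.52 and 0.56 in CON replicate 2.

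With the GC trend of each sample removed, the pooled standard deviation within groups was smaller in 4 genes and larger in 5. It went from 0.46 to 0.19 in Bin1, from 0.52 to 0.36 in Mapt, from 0.21 to 0.12 in Sorl1 and from 0.111 to 0.0935 in App. It went up from 0.113 to 0.249 in Psen2, from 0.16 to 0.24 in Clu, from 0.154 to 0.177 in Bace1, from 0.110 to 0.119 in Adam10 and from 0.116 to 0.134 in Ide. The log2 fold changes after this correction were 0.16 for Bace1, 0.13 for Mapt, 0.082 for Clu, 0.073 for Sorl1, 0.070 for Bin1, 0.062 for App, -0.025 for Adam10, -0.082 for Psen2 and -0.11 for Ide. None of the 9 genes had an unadjusted p below 0.05, and the smallest was 0.288 in Bace1. The part of GC content in the spread of a single gene was not tested.

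For each gene the most similar patterns over the 6 samples were looked up, by the root mean square difference between mean-centred log2 levels. For Mapt these were Slc39a1 (0.032) and Plec (0.037), and for Bin1 they were Ppp2r5b (0.045) and Tusc2 (0.048). The transcripts of these 4 genes had a GC content of 53.2%, 61.3%, 59.0% and 55.1%. The nearest patterns to App were Gpr85 (0.025) and Gm37776 (0.031). Among 12387 genes and with only 6 samples close matches arise easily, and nothing on function follows from them.

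Other genes of the pathways were examined as a background to the 9, in 6 lists with 67 genes, of which 66 had a level and all 66 passed the filter. By limma, 0 had an adjusted p below 0.05 and 0 passed the cut-off. An unadjusted p below 0.05 was found for 5 of 66 (7.58%, against 3.13% of all genes tested). Of these 3 were higher in PND, against 1.73% of all genes, and 2 were lower, against 1.4%. The median log2 fold change of the 66 genes was 0.036, and in 6 of them (9.09%, against 7.66% of all genes tested) the groups did not overlap.

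**Figure D4:**
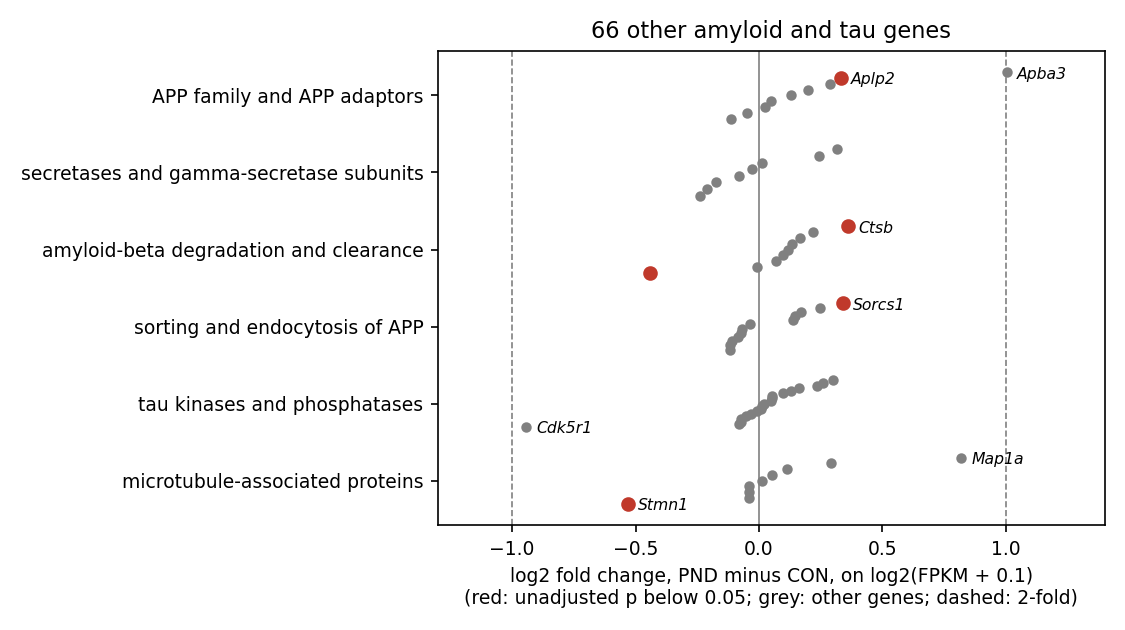
Log2 fold change, PND minus CON on log2(FPKM + 0.1), of the 66 other amyloid and tau genes by list, with 1 point per gene, the 5 genes with an unadjusted p below 0.05 in red and dashed lines at a 2-fold change. Most points (62 of 66) lie within 0.5 of 0, as do 86.3% of all genes tested. The share is 94.1% among genes averaging 1 FPKM or more. Stmn1 at -0.53 has the smallest p.

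The list of microtubule-associated proteins also took in stathmins. Of these, Stmn1 (stathmin, which destabilises microtubules) was at 47.3, 57.6 and 42.2 FPKM in PND and at 72.3, 72.0 and 66.6 FPKM in CON. All 3 PND samples lay below all CON samples. The log2 fold change was -0.53 (standard error 0.13, unadjusted p = 0.00434, adjusted p = 0.9999), and the unadjusted p stayed below 0.05 in all 16 alternatives, with a highest value of 0.0203. Map1b, the most abundant of that list, had a log2 fold change of -0.041 (unadjusted p = 0.667).

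In the APP family, Aplp2, a paralogue of App, had 219, 221 and 197 FPKM in PND and 138, 183 and 189 FPKM in CON. Its PND samples lay above its CON samples, with a log2 fold change of 0.33 (standard error 0.14, unadjusted p = 0.0484). The unadjusted p was below 0.05 in 5 of 16 alternatives. It was above 0.05 without any 1 of the PND samples or without CON replicate 1, and highest at 0.125 without PND replicate 2. Of the 10 fits with all samples, 3 gave a p below 0.05. The other paralogue, Aplp1, ranged from 33.0 to 101 FPKM, with both ends in CON replicates 1 and 2, and had a log2 fold change of 0.20 (unadjusted p = 0.656).

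Among the genes of amyloid-beta breakdown and clearance, Ctsb, the lysosomal protease cathepsin B, had 52.1, 46.3 and 57.2 FPKM in PND and 36.2, 48.2 and 37.4 FPKM in CON, and the groups overlapped. Its log2 fold change was 0.36 (standard error 0.14, unadjusted p = 0.0391). The unadjusted p was below 0.05 in 10 of 16 alternatives. It was above 0.05 without PND replicate 3 (0.124), PND replicate 1, CON replicate 1 or CON replicate 3, and among the fits with all samples it was above 0.05 in 2, such as that without the intensity trend.

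Among the sorting genes, Sorcs1, a receptor of the same family as Sorl1, had 12.1, 12.1 and 10.8 FPKM in PND and 9.44, 9.65 and 8.53 FPKM in CON, without overlap. Its log2 fold change was 0.34 (standard error 0.12, unadjusted p = 0.0247), and the p was below 0.05 in 10 of 16 alternatives. It was above 0.05 without PND replicate 1 (0.0856), PND replicate 2 or CON replicate 3, and in 3 of the 10 fits with all samples, such as those without the intensity trend and with median centring. Vps35, a subunit of the retromer that returns cargo from endosomes and the most abundant gene of that list, had a log2 fold change of -0.084 (unadjusted p = 0.391).

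In the remaining lists no gene had an unadjusted p below 0.05. Of the 8 secretase genes, Aph1b, a gamma-secretase subunit, came closest with 4.63, 4.01 and 4.38 FPKM in PND against 5.23, 4.97 and 4.92 FPKM in CON (log2 fold change -0.21, unadjusted p = 0.165). Adam9, the most abundant of them, had a log2 fold change of 0.011 (unadjusted p = 0.929). Of the 19 tau kinases and phosphatases, Cdk5 had the smallest unadjusted p (0.115), with a log2 fold change of 0.24, and Ppp2r2a, a regulatory subunit of the phosphatase PP2A and the most abundant of that list, had a log2 fold change of 0.0082 (unadjusted p = 0.953).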

How the data were processed

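The data were mRNA levels of 6 prefrontal cortex samples, 1 animal each. The authors removed ribosomal RNA, filtered reads with Seqtk, aligned them with HISAT2, counted fragments with StringTie and scaled them by TMM, and the deposited values are FPKM per gene. The genome build of the alignment is not given in the methods. The submitters' processing notes name Bowtie 0.12.2, mm8 and mm9 without a role. Groups came from the treatment label and replicate numbers from the titles.

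Symbols and coordinates came from a mouse gene table and GENCODE M21 (GRCm38), which matched 20866 of 21006 identifiers. The test between PND and CON was that of limma 3.58.1 (R 4.3.3, lmFit, and eBayes with trend set) without covariates. It used log2(FPKM + 0.1) and the 18185 genes that averaged 0.1 FPKM or more. Adjusted p-values follow Benjamini and Hochberg over all genes tested. The fold scale understates changes of low genes. Depth was estimated from FPKM times exon length, whose low values move in steps of 1 fragment, and the depth taken was that giving the largest share of values whole to within 0.05. Among values between 0.5 and 20.5 fragments this share was 41.6% to 44.8%, where an even spread at a fixed depth gives 10%. Most values thus did not come out whole, and the depth and the fragment numbers are approximate. The limma fit was also run on simulated counts, with the same dispersion for all genes and no GC trend. That simulation therefore cannot say how the fit behaves under the GC trend of these samples. GC correction subtracted a lowess curve of the deviation from the gene mean on transcript GC content in each sample.

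The 9 genes, the other lists and the alternatives were chosen with earlier results of these data known. The genes named were the 9, the other pathway genes with an unadjusted p below 0.05 and, per list, the gene with the smallest p and that with the highest mean. Also named were the 2 nearest patterns for 3 of the 9 genes. Of the genes these rules give, 2 are not reported here by name, though counts include them. Aplp1 and the markers named beside Clu and Bin1 were singled out after their values were seen.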

Additional observations from a re-analysis of the deposited data

How the results depend on the processing

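In 10 alternatives that kept all samples (other pseudocounts, filters, scalings, variance model, GC correction and the replicate block; Psen2, averaging under 1 FPKM, was not tested under the stricter filter), none of the 9 genes had an unadjusted p below 0.05 or changed the sign of its fold change. Leaving out a sample gave 0 to 1 genes with an unadjusted p below 0.05 and 0 past the cut-off of the study. Signs changed for App without CON replicate 3 (-0.025), for Mapt (-0.19) and Bin1 (-0.12) without CON replicate 1, for Adam10 without PND replicate 3 (0.020) and for Psen2 without PND replicate 2 (0.0081) and without CON replicate 2 (0.061). Over the leave-out fits the range was -0.025 to 0.13 for App, -0.19 to 0.49 for Mapt, -0.12 to 0.46 for Bin1, -0.13 to 0.020 for Adam10, -0.094 to 0.061 for Psen2, 0.11 to 0.28 for Bace1, 0.054 to 0.26 for Clu, 0.023 to 0.27 for Sorl1 and -0.20 to -0.065 for Ide. The cause was not tested. Of the other 66 pathway genes, 5 had an unadjusted p below 0.05 (3.13% of all genes), against 2 without the intensity trend (3.62%), 3 with median centring (3.02%), 1 with the replicate block (1.99%; Stmn1, unadjusted p = 0.00839, while Aplp2 had 0.0853, Ctsb 0.0878 and Sorcs1 0.0566) and 2 to 6 when a sample was left out (2.24% to 5.28%). Genes past the cut-off numbered 241 over all genes tested, 25 when the pseudocount was 1, 59 when only genes averaging 1 FPKM or more were tested, and 235 to 388 when a sample was left out. The difference in the log2 ratio of Bace1 to Adam10 stayed between 0.17 and 0.34. Samples with the same replicate number did not deviate together (correlations over genes of -0.049, -0.45 and 0.027), so the numbers were not taken as pairs. With 3 samples a group, the standard error was largest for Mapt (0.33) and Bin1 (0.29). With GC correction it was 0.24 for Psen2, 0.23 for Mapt, 0.16 for Clu, 0.14 for Bace1 and 0.13 for Bin1.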

Other observations

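In genes of the tau pathway, 2 patterns came from a single sample, and both genes were chosen after their values were seen. Map1a, a microtubule-associated protein of dendrites and axons, was at 15.4 FPKM in CON replicate 1 and between 104 and 128 FPKM in the other 5 samples, so its log2 fold change of 0.82 (standard error 0.73, limma unadjusted p = 0.299) rested on that sample. Mapt was lowest in the same sample at 15.4 FPKM, but its other samples covered 24.0 to 39.7 FPKM. Cdk5r1, the p35 activator of the tau kinase CDK5, was at 4.79 FPKM in PND replicate 3 and between 26.8 and 37.0 FPKM in the other 5, with a log2 fold change of -0.94 (standard error 0.64, unadjusted p = 0.182). Its partner Cdk5 had its highest level in PND replicate 3, with 13.2 FPKM against 9.75 to 12.7 FPKM in the other 5.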
